A study of Mus musculus with 12 samples.

Results

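Forebrain endothelium of *Gpr124*ΔC/ΔC mouse embryos was compared with that of wild-type (WT) embryos over all genes with enough reads. The comparison used the 8 RNA-seq libraries that the labels give these genotypes, out of 12 libraries in the series, and 16637 of the 49315 genes counted passed the filter on low counts. The 4 WT embryos were JE1, JE6, KE8 and LE6 and the 4 *Gpr124*ΔC/ΔC embryos were JE3, JE4, LE2 and LE5, all at E15.5 (E standing for embryonic day), with 1 embryo per library. The remaining 4 libraries came from *Gpr124*-/- embryos, which carry a lacZ allele, and their values stand beside those of *Gpr124*ΔC/ΔC where they help to read them. The ΔC allele was made with CRISPR in C57BL/6 zygotes, with founders mated to B6DF1 mice. It places a V5 epitope and a stop codon shortly after the last membrane-spanning segment, so that the protein lacks nearly all of its cytoplasmic tail. The study's protein assays, not analysed here, found less of the truncated receptor than of the whole one, both in total and on the surface of brain endothelial cells, so that loss of the tail and a lower amount of receptor cannot be told apart in these embryos. Cells were sorted as CD31+, CD140b-, CD45- and 7AAD-, a gate that takes endothelium and leaves out pericytes, leukocytes and dead cells.

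GPR124 (gene symbol *Adgra2*) is an adhesion G protein-coupled receptor of brain endothelium. Together with the membrane-anchored protein RECK it lets WNT7A and WNT7B, made by neural cells, signal through Frizzled receptors and the LRP5 and LRP6 co-receptors. The signal stabilizes β-catenin, which with TCF and LEF factors drives the genes that give brain vessels their barrier: tight junction proteins, nutrient transporters and a low rate of vesicular transport. The comparison therefore asks what brain endothelium expresses when the receptor has lost its intracellular domain and is present in a lower amount.

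Between 13877572 and 16033001 reads fell on genes in the *Gpr124*ΔC/ΔC libraries, against 17063091 to 22551163 in WT, so the totals did not overlap (exact two-sided permutation test, p = 0.0286, the smallest that 4 embryos against 4 allow). The 14 pan-endothelial markers summed to 7512 to 10511 TPM (a level scaled by gene length and library size) in *Gpr124*ΔC/ΔC and 8505 to 10310 in WT. Pericyte markers (12 genes) were low in every library, with sums of 25.8 to 59.0 TPM against 44.2 to 102, and were lower in *Gpr124*ΔC/ΔC in 10 of the 12 genes. The part of these differences in the results was not tested, apart from the thinned libraries given at the end. Embryos of both sexes were present in both groups, since the X-inactivation transcript *Xist* was at 66.0 to 69.1 TPM in 2 WT embryos and at 69.5 to 73.9 in 3 *Gpr124*ΔC/ΔC embryos and below 0.1 TPM in the others. The embryo labels begin with a letter whose meaning the sources do not give: letter J holds 2 embryos of each genotype, letter L 1 WT and 2 *Gpr124*ΔC/ΔC, and letter K 1 WT.

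*Adgra2* mRNA (ENSMUSG00000031486, GRCm38 chromosome 8, 27085583 to 27123436, plus strand) was at 42.9, 51.1, 28.3 and 31.9 TPM in the WT embryos JE1, JE6, KE8 and LE6. In the *Gpr124*ΔC/ΔC embryos JE3, JE4, LE2 and LE5 it was at 63.4, 40.8, 34.1 and 35.2 TPM. The groups overlapped, and the log2 fold change was 0.11 with a standard error (SE) of 0.28 and an adjusted p of 0.945 from edgeR's quasi-likelihood test. Its sign rested on single embryos, because it was -0.03 without WT embryo KE8 and -0.23 without *Gpr124*ΔC/ΔC embryo JE3. A truncated transcript and a whole one count alike in these files, so this value speaks of the amount of *Adgra2* mRNA and not of the protein. None of the 110 genes tested within 10 Mb of *Adgra2* was called, beside 1.56% of chromosome 8 and 1.92% of all genes, shares too low to read anything from a count of this size.

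A small share of the transcriptome differed between the genotypes. A gene was called where it had a log2 fold change beyond 1 in size and an adjusted p below 0.05, the thresholds of the study, and 320 genes were (1.92% of those tested). The mutants had more of 148 of them (0.89%) and less of 172 (1.03%). Without the fold threshold 680 genes passed (4.09%), 308 higher and 372 lower. Taking the mean of both genotypes as the level, the median was 9.70 TPM for the lower genes, 4.43 TPM for the higher genes and 12.6 TPM over all genes tested. Above 100 TPM on this measure lay 40 called genes, 30 lower and 10 higher. Protein-coding genes made up 284 of the 320. The median absolute log2 fold change was 1.47 over the called genes and 0.17 over all genes, and 55 called genes moved by more than 2 on this scale. The ranges of the 4 and 4 embryos did not overlap in 310 called genes, against 11.3% of all genes tested. In bulk RNA, less of a transcript per cell and fewer cells that express it cannot be told apart.

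**Figure D1:**
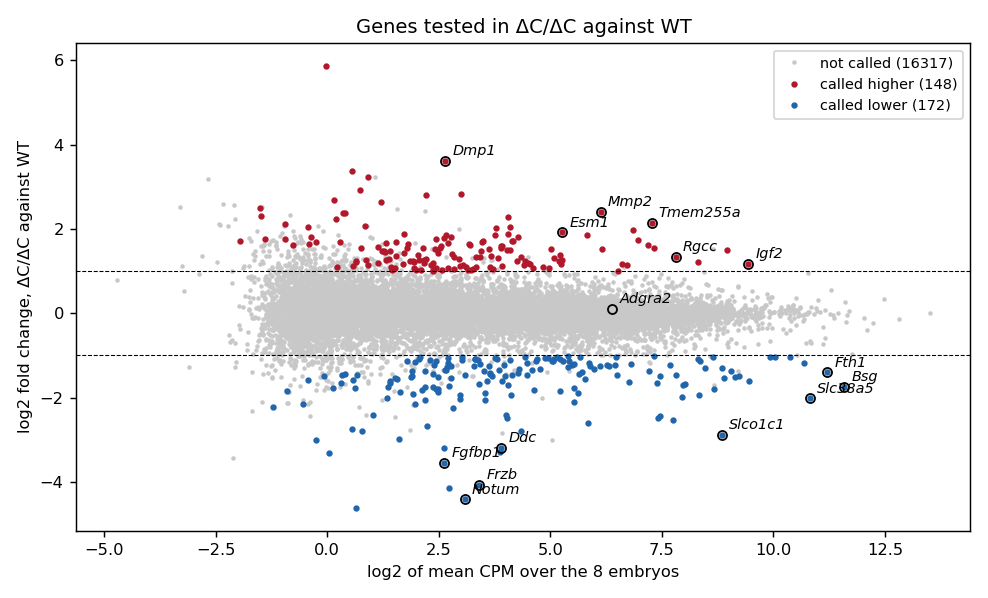
Each point is 1 of the 16637 genes tested, placed by the log2 of its mean CPM (counts scaled to library size) over the 8 embryos (horizontal) and its log2 fold change against WT (vertical), with dashed lines at 1 and -1. Called genes are coloured (148 higher, 172 lower), the most abundant ones lie below the lower line, and *Adgra2* lies near 0.

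The sign of the difference from WT recurred in embryos that share no library. Fitted on the 4 letter J embryos alone, 272 of the 15772 genes tested for both letters were called (1.72%). The 3 letter L embryos include 1 WT and were read here for the sign and size of the difference only. The sign was the same in letter L for 263 of the 272 (96.7%), against 65.1% of all genes tested for both letters. Among the others was the pseudogene *Gm6969*, at -4.48 in letter J and 3.57 in letter L. The genes lower in letter J had a median log2 fold change of -1.52 there and of -1.27 in letter L, and the genes higher in letter J had medians of 1.498 and 1.26. A test of whether the genotype difference itself differed between the letters, chosen after seeing the data, passed for 1 of 16160 genes, a ribosomal protein gene with near-identical copies, *Rps3a2* (difference of -3.02 in log2 fold change, edgeR adjusted p = 0.0122), while 630 genes (3.90%) had an unadjusted p under 0.05. Letter L has a single WT embryo, whose spread is taken to be like that of the others.

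**Figure D2:**
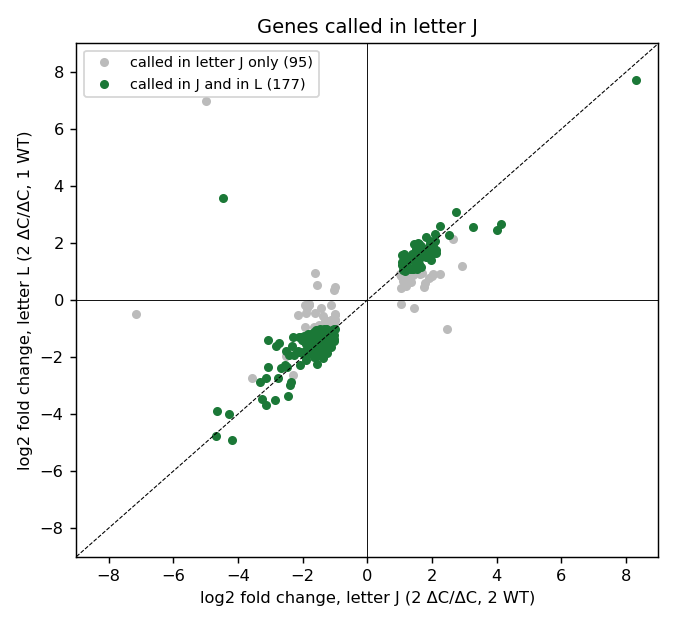
The 272 genes called in the letter J embryos, by their log2 fold change against WT in letter J (horizontal) and in letter L (vertical), with the line of equal change dashed. Green points are the 177 genes also called in letter L, nearly all at the lower left and upper right.

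None of the 21 listed genes of the receptor machinery was called, which is near the 1.92% of all genes, and their median log2 fold change was -0.05, beside 0.01 over all genes. *Reck*, the partner of GPR124, was at 22.2 ± 2.56 TPM (SD, n = 4) in WT and 23.2 ± 6.46 TPM in *Gpr124*ΔC/ΔC, with a log2 fold change of -0.04 (SE 0.14, adjusted p = 0.963) whose sign turned with the setting. *Fzd4*, a Frizzled receptor of vascular endothelium, rose below the fold threshold, from 50.3 ± 9.66 to 80.1 ± 22.05 TPM (log2 fold change 0.58, SE 0.14, adjusted p = 0.038). *Fzd6* was at 205 ± 14.9 TPM in WT and 158 ± 18.9 in *Gpr124*ΔC/ΔC and did not pass (adjusted p = 0.0574), and neither did *Ctnnb1*, which encodes β-catenin (log2 fold change 0.11, adjusted p = 0.83).

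Among the targets and feedback regulators of WNT signaling, 17 listed genes were tested. Of these, 8 were called lower and none higher (47.1%, against 1.03% lower over all genes), 16 had a log2 fold change below 0, and the list's median was -1.07. The largest fall was that of *Notum*, a secreted enzyme that inactivates WNT ligands. It was at 24.3, 18.7, 14.9 and 17.0 TPM in the WT embryos JE1, JE6, KE8 and LE6 and at 1.62, 0.709, 0.278 and 0.872 TPM in the *Gpr124*ΔC/ΔC embryos JE3, JE4, LE2 and LE5. The lowest WT embryo thus stood well above the highest *Gpr124*ΔC/ΔC embryo, and the log2 fold change was -4.41 (SE 0.41, adjusted p = 6.44e-05). *Nkd1*, an inhibitor of Dishevelled induced by WNT, was at 274, 190, 97.3 and 150 TPM in WT and at 48.6, 41.1, 16.9 and 23.6 TPM in *Gpr124*ΔC/ΔC, in the same order of embryos. Its level varied between letters within each genotype, with the letter J embryos highest, but the groups did not overlap (log2 fold change -2.49, SE 0.38, adjusted p = 0.00228).

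*Axin2*, the scaffold of the β-catenin destruction complex and the most used readout of this pathway, fell, with means of 6.86 ± 0.734 TPM in WT and 3.44 ± 0.546 TPM in *Gpr124*ΔC/ΔC. Its 4 WT embryos lay between 5.85 and 7.59 TPM and its 4 *Gpr124*ΔC/ΔC embryos between 2.94 and 4.22 TPM. The log2 fold change of -1.07 (SE 0.15, adjusted p = 0.00104) was close to the fold threshold and the call was lost in 5 settings, namely without *Gpr124*ΔC/ΔC embryo JE4, in the letter J libraries alone and in the 3 limma fits on TPM. The growth factor carrier *Fgfbp1* fell from 14.3 ± 4.83 to 1.28 ± 0.438 TPM (log2 fold change -3.55, SE 0.51, adjusted p = 0.00139). *Wnt5a*, a ligand of the non-canonical branch, fell from 10.03 ± 1.71 to 1.90 ± 0.511 TPM (log2 fold change -2.48, SE 0.19, adjusted p = 2.14e-05). *Nkd2* (log2 fold change -1.35, adjusted p = 0.00363) and the nuclear receptor gene *Ppard* (log2 fold change -1.32, adjusted p = 0.000165) fell too. The difference of *Nkd2* was -1.94 within letter J and -0.94 within letter L, where the call was lost. The transcription factor gene *Sp5* was at only 2.03 to 3.42 TPM in WT and at 0.958 to 1.02 in *Gpr124*ΔC/ΔC, and its call (log2 fold change -1.43, adjusted p = 0.0334) was lost in 17 alternative settings, among them each of JE1, JE6, KE8, JE3, JE4, LE2 and LE5 left out and the fit with the letter as a term (-1.40, adjusted p = 0.0575).

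Other members of the list did not pass. *Lef1*, a DNA-binding partner of β-catenin, was at 38.4 to 40.6 TPM in WT and 34.6 to 40.9 TPM in *Gpr124*ΔC/ΔC (log2 fold change -0.16, SE 0.10, adjusted p = 0.558). *Tcf7* was at 42.5 to 85.9 TPM in WT and at 27.1 to 59.5 TPM in *Gpr124*ΔC/ΔC (log2 fold change -0.85, SE 0.36, adjusted p = 0.283). The difference of *Tcf7* was -0.88 within each letter and -0.89 (adjusted p = 0.0498) with the letter as a term. *Apcdd1*, a membrane-bound WNT inhibitor, was at 885, 915, 337 and 321 TPM in WT and at 354, 159, 114 and 145 TPM in *Gpr124*ΔC/ΔC. Here JE3 overlapped the WT range, and the letter J embryos of WT stood far above KE8 and LE6. Its log2 fold change of -1.71 had an adjusted p of 0.0804, and it was -1.82 (adjusted p = 0.054) within letter J, -1.39 within letter L, which has 1 WT embryo, and -1.65 (adjusted p = 0.00421) with the letter as a term.

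**Figure D3:**
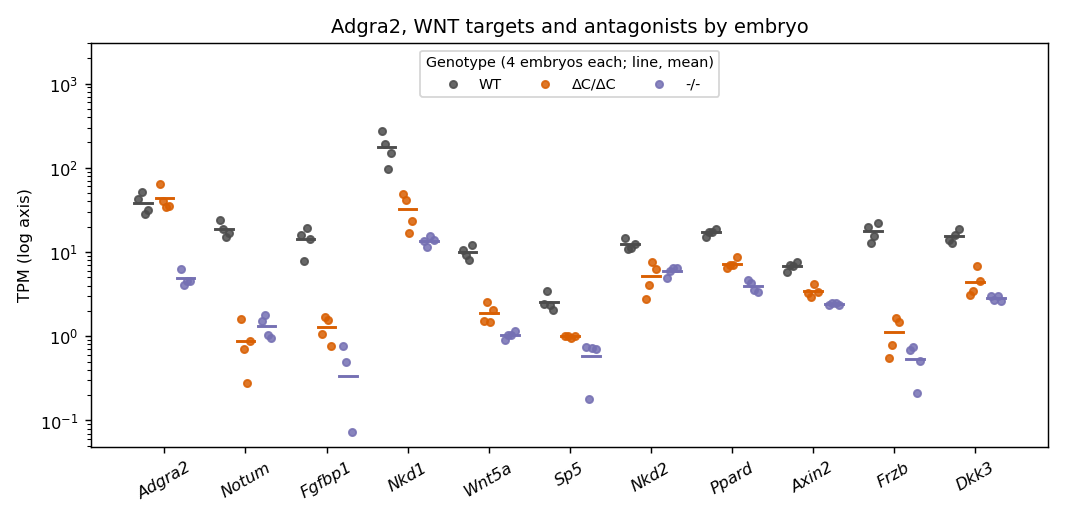
TPM (log axis) of *Adgra2*, the 8 called WNT targets and the antagonists *Frzb* and *Dkk3* in single embryos (points) with the mean of each genotype (line). *Gpr124*ΔC/ΔC and WT overlap for *Adgra2* and are apart for the other genes, and 1 *Gpr124*-/- embryo at 0 TPM of *Fgfbp1* is not drawn.

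The sequence before the start of 3 of the falling genes is shown, to set 2 feedback regulators of the pathway beside a transporter that fell strongly. They are RefSeq promoter windows of 300 bases (250 before to 50 after the gene start), build GRCm38.p6, 5′ to 3′ on the gene's strand, which is plus for all 3. Capitals mark each match to the core of the TCF/LEF motif, spelled CTTTG and then 2 bases that are each A or T, and searched on both strands. *Axin2* (chr11:108920099-108920398) held no match, *Sp5* (chr2:70474673-70474972) held 2, and *Slco1c1* (chr6:141524104-141524403) held 2. The windows of *Nkd1*, *Nkd2*, *Frzb*, *Ppard* and *Fgfbp1* held none, so that 1 of the 6 called WNT targets with a window held the core.
Axin2: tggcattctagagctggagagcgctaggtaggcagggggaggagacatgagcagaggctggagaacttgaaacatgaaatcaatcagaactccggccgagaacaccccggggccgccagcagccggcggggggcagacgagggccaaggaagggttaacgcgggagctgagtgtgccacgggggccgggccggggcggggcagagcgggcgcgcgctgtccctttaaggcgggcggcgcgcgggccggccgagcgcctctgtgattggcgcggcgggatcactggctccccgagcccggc
Sp5: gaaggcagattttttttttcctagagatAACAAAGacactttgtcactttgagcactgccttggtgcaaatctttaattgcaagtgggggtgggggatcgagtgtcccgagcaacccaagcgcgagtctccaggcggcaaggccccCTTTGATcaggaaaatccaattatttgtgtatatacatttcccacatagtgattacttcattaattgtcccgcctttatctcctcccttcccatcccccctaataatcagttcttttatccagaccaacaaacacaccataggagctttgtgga
Slco1c1: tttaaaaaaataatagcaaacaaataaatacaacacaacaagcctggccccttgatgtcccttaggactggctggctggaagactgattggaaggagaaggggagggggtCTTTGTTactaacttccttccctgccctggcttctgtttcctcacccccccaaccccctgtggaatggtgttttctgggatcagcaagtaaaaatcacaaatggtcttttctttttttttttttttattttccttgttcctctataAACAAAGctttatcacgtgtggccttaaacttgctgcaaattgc
The core was present in 16.9% of all 32851 windows of the table and in 11.5% of the 11046 that matched a gene tested here. Among called genes with a window, 20 of 124 lower genes (16.1%) and 11 of 109 higher genes (10.1%) held it. These are counts of letters in a short window and not of sites that are bound.

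Of 11 secreted WNT antagonists tested, 3 were called lower and none higher, beside 1.03% lower over all genes. A log2 fold change below 0 was found in 6 and above 0 in 5, and the median was -0.11. The called genes were *Notum*, also counted among the targets above, *Frzb* and *Dkk3*. The highest value of the list was that of *Sost*, an inhibitor of LRP5 and LRP6 known from bone, which was barely detected (0.136 ± 0.119 TPM in WT, 0.856 ± 0.656 TPM in *Gpr124*ΔC/ΔC) and did not pass (log2 fold change 2.52, adjusted p = 0.101). *Frzb*, a decoy that holds WNT proteins outside the cell, was at 20.1, 12.7, 15.4 and 22.1 TPM in WT and at 0.552, 0.791, 1.66 and 1.48 TPM in *Gpr124*ΔC/ΔC. No embryo of either group came near the other, and the log2 fold change was -4.07 (SE 0.34, adjusted p = 3.33e-05). *Dkk3*, a divergent member of the Dickkopf family, fell from 15.4 ± 2.82 to 4.46 ± 1.71 TPM (log2 fold change -1.88, SE 0.20, adjusted p = 0.000165).

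Of 23 transcription factors of brain endothelium, 19 had a log2 fold change below 0, beside 8161 of all 16637 genes, and the median was -0.22. By embryo the list median moved with the letter, at 0.23 and -0.10 log2 CPM from the WT mean in the letter J mutants and -0.82 and -0.79 in those of letter L, against 0.14 and 0.25 in the WT embryos of letter J and -0.22 in KE8 and LE6, so that the genotypes overlapped. *Sox7*, an endothelial SOX factor, fell inside the fold threshold (466 ± 16.9 to 357 ± 38.1 TPM, log2 fold change -0.47, adjusted p = 0.00171). *Foxf2* was at 180 to 341 TPM in WT and 117 to 242 in *Gpr124*ΔC/ΔC and did not pass (log2 fold change -0.62, adjusted p = 0.344, and -0.60 with 0.026 for *Foxf2* with the letter as a term).

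Junction genes fell in part. Of 20 tested, 2 were called lower and none higher, beside 1.03% lower over all genes. Without the fold threshold 4 passed, all lower, beside 372 lower among all 16637 genes, and the median log2 fold change was -0.27. *Cldn5*, the main claudin of the blood-brain barrier, was at 9172, 7613, 9816 and 10108 TPM in WT and at 3531, 4687, 5309 and 6451 TPM in *Gpr124*ΔC/ΔC. The groups were apart, and the log2 fold change of -0.97 (SE 0.14, adjusted p = 0.00139) lay just inside the fold threshold, which it crossed within letter J (-1.09) and not within letter L (-0.87). With the letter as a term *Cldn5* was called (-1.007, adjusted p = 9.3e-05). *Lsr*, the angulin of tricellular junctions, fell from 592 ± 77.2 to 352 ± 76.4 TPM (log2 fold change -0.84, adjusted p = 0.00259). *Ocln*, which encodes occludin, was at 134 to 209 TPM in WT and 51.4 to 129 in *Gpr124*ΔC/ΔC and missed the threshold (log2 fold change -0.98, adjusted p = 0.0512, and 0.000621 with the letter as a term). The called genes were *Igsf5*, a junctional adhesion molecule (19.1 ± 3.83 to 4.95 ± 2.37 TPM, log2 fold change -2.06, adjusted p = 0.00128), and *Pard6g*, a polarity protein (16.3 ± 2.30 to 6.31 ± 1.14 TPM, log2 fold change -1.44, adjusted p = 0.000624).

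*Mfsd2a* and *Plvap*, which mark low and high vesicular transport, lay on opposite sides of 0. *Mfsd2a*, the carrier of lysophospholipids that restrains transcytosis, was at 1362, 1098, 1317 and 1493 TPM in WT and at 276, 387, 453 and 724 TPM in *Gpr124*ΔC/ΔC. It fell in every mutant embryo (log2 fold change -1.62, SE 0.28, adjusted p = 0.00443). *Plvap*, the diaphragm protein of fenestrae and caveolae, was at 487, 427, 83.4 and 147 TPM in WT and at 1356, 1378, 333 and 329 TPM in *Gpr124*ΔC/ΔC. Its level depended on the letter, so that the letter L mutants lay below the letter J controls, and the comparison of all 8 embryos did not pass (log2 fold change 1.52, SE 0.64, adjusted p = 0.283). Within letter J it was 1.53 (adjusted p = 0.00148), within letter L, which has 1 WT embryo, 1.09, and with the letter as a term 1.35 (adjusted p = 3.12e-05). Of the 13 genes of this list *Mfsd2a* alone was called, where the 1.92% of all genes gives few or none. *Ehd4*, a caveolar ATPase, rose without reaching the fold threshold (log2 fold change 0.45, adjusted p = 0.04).

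Barrier transporters formed the largest group of falling genes. Of 38 tested, 11 were called lower and none higher (28.9%, against 1.03% lower over all genes). Without the fold threshold 17 passed, all lower, beside 372 lower among all 16637 genes. A log2 fold change below 0 was found in 33, beside 8161 of all genes, and the median was -0.75. *Slco1c1*, the thyroid hormone and organic anion carrier whose promoter is shown above, was at 426, 318, 489 and 531 TPM in WT and at 30.7, 57.8, 64.8 and 104 TPM in *Gpr124*ΔC/ΔC. Every mutant embryo stood far below the lowest control, and the log2 fold change was -2.88 (SE 0.29, adjusted p = 0.000134). *Slc22a8*, an organic anion transporter, was at 236 to 337 TPM in WT and 37.7 to 72.1 TPM in *Gpr124*ΔC/ΔC (log2 fold change -2.53, SE 0.29, adjusted p = 0.000335). The choline transporter-like gene *Slc44a5* fell most (10.6 ± 3.38 to 1.15 ± 0.481 TPM, log2 fold change -3.29, adjusted p = 4.76e-05). *Slc38a5*, a carrier of glutamine and other amino acids and among the most abundant transporters here, was at 3581, 2861, 4271 and 3942 TPM in WT and at 607, 893, 1018 and 1335 TPM in *Gpr124*ΔC/ΔC (log2 fold change -2.02, SE 0.35, adjusted p = 0.00495).

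Carriers of other substrates fell by less. *Slc16a1*, the lactate and ketone body carrier MCT1, went from 40.9 ± 8.07 to 18.9 ± 6.001 TPM (log2 fold change -1.21, adjusted p = 0.00413). *Lrp8*, a receptor for reelin and apolipoprotein E, fell with a log2 fold change of -1.37 (adjusted p = 0.00413). *Slc38a3* (-1.04), *Abca4* (-1.09) and the iron exporter *Slc40a1* (-1.04) were called near the threshold, and their calls were lost in 6, 8 and 8 alternative settings, *Abca4* without KE8 or LE2 and with the letter as a term (-0.96), *Slc38a3* without JE3 or LE6, and *Slc40a1* without JE3, JE4 or KE8. *Slc7a1* (-0.98), *Slc35f2* (-0.99), *Slc5a6* (-0.94) and *Abca1* (-0.80) passed the test inside the fold threshold. The glucose transporter *Slc2a1*, at 3477 to 4239 TPM in WT and 2132 to 4028 TPM in *Gpr124*ΔC/ΔC, did not pass (log2 fold change -0.40, SE 0.13, adjusted p = 0.144), and neither did the efflux pump *Abcb1a* (-0.44, adjusted p = 0.333) or the large amino acid carrier *Slc7a5* (-0.73, adjusted p = 0.509, and 0.00254 with the letter as a term). Over the list, the median difference of an embryo from the WT mean was -0.96, -0.71, -0.72 and -0.49 log2 CPM in JE3, JE4, LE2 and LE5, and between -0.11 and 0.15 in the WT embryos.

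**Figure D4:**
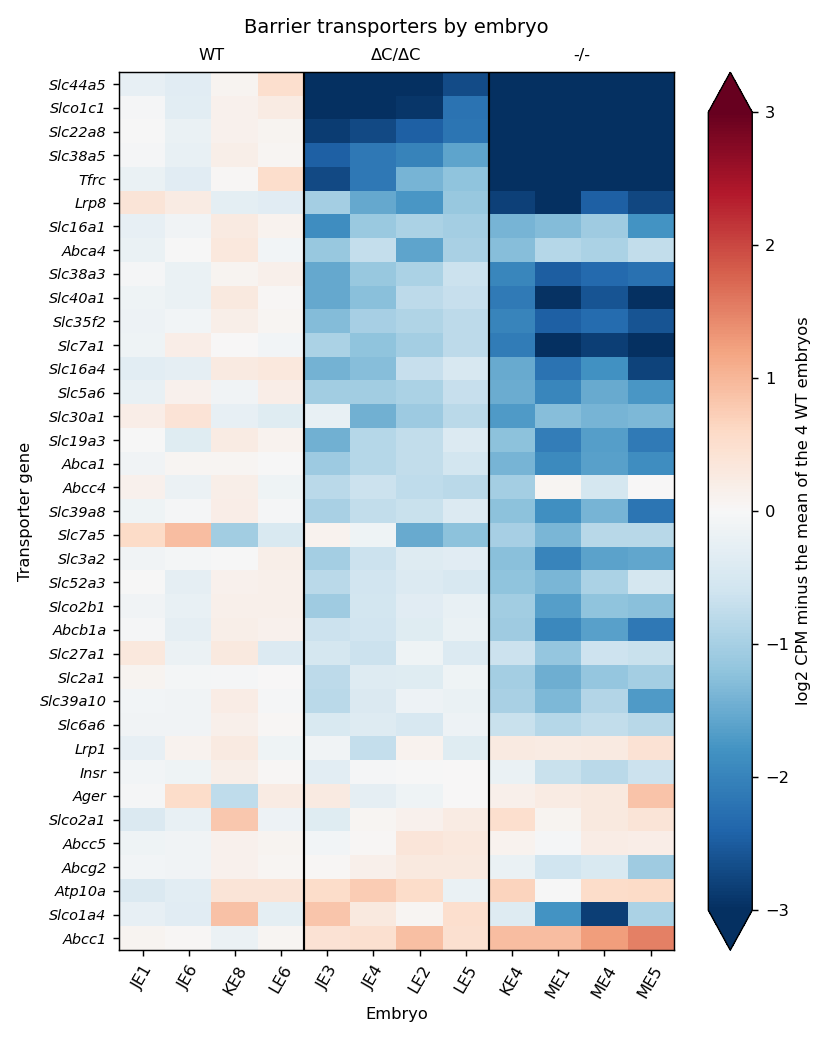
Barrier transporters reported here (rows) in each of the 12 embryos (columns), coloured by log2 CPM minus the mean of the 4 WT embryos, with the scale limited to -3 and 3. Most rows are lower in all 4 *Gpr124*ΔC/ΔC embryos, and the rows are ordered by the *Gpr124*ΔC/ΔC mean.

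Enzymes of the barrier moved in both directions. Of 25 tested, 6 were called lower and 2 higher, beside 1.03% and 0.89% of all genes. *Ddc*, the aromatic amino acid decarboxylase, fell from 17.0 ± 3.69 to 1.96 ± 0.551 TPM (log2 fold change -3.19, SE 0.31, adjusted p = 0.000104). The carbonic anhydrases *Car2* (461 ± 38.8 to 152 ± 15.6 TPM, log2 fold change -1.68) and *Car4* (12.8 ± 4.07 to 3.71 ± 1.41 TPM, -1.88) fell, as did the glycerophosphocholine phosphodiesterase *Gpcpd1* (-1.13). Of the listed enzymes that handle prostaglandins, *Ptges*, *Ptgs1* and *Hpgd* were called, while *Ptgs2* (-1.09, adjusted p = 0.444), *Ptgis* (-0.17, adjusted p = 0.754) and *Ptgds* (0.80, adjusted p = 0.891) did not pass. *Ptges*, which makes prostaglandin E2, was at 56.3 to 80.3 TPM in WT and 6.37 to 21.3 TPM in *Gpr124*ΔC/ΔC (log2 fold change -2.61, adjusted p = 0.00039). *Ptgs1*, the constitutive cyclooxygenase, rose from 13.4 ± 3.08 to 30.2 ± 6.72 TPM (1.09, adjusted p = 0.00208, a call lost without JE6 and in the letter L libraries), and *Hpgd*, which degrades prostaglandins, rose from 5.09 ± 2.71 to 14.5 ± 2.28 TPM (1.44, adjusted p = 0.0115).

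The most abundant falling genes named by level were *Fth1*, *Bsg*, *Slc38a5*, *Selenop*, *Mfsd2a*, *Apoe*, *Slc1a4*, *Apod*, *Slc38a3* and *Cd82*. *Fth1*, the heavy chain of the iron store ferritin, was at 9783, 9903, 12517 and 12278 TPM in WT and at 3901, 4585, 4373 and 4986 TPM in *Gpr124*ΔC/ΔC. The groups were far apart (log2 fold change -1.40, SE 0.10, adjusted p = 1.35e-05), but its processed copy *Fth-ps3* was called lower too (-1.27), and reads may be shared between such copies. *Bsg*, the chaperone of monocarboxylate carriers known as basigin, was at 7361, 5634, 7883 and 8705 TPM in WT and at 1684, 2369, 2249 and 3085 TPM in *Gpr124*ΔC/ΔC (log2 fold change -1.74, SE 0.14, adjusted p = 2.14e-05). Here too no mutant embryo came near the controls. Apolipoprotein genes fell as well, *Apod* from 768 ± 93.6 to 283 ± 61.5 TPM (-1.53, adjusted p = 0.0011) and *Apoe* from 1106 ± 148 to 409 ± 68.8 TPM (-1.52, adjusted p = 0.0168), the latter call being lost without JE4 or LE2. The selenium carrier *Selenop* (2260 ± 429 to 1067 ± 209 TPM, -1.17), the tetraspanin *Cd82* (610 ± 77.3 to 264 ± 52.5 TPM, -1.29) and the neutral amino acid carrier *Slc1a4* (1008 ± 157 to 529 ± 171 TPM, -1.03) completed the group, and the call of *Slc1a4* was lost in 10 settings, among them JE3, JE4, KE8 or LE6 left out. Among the largest falls outside the lists were *Vstm2b* (-4.15), *Cdkn2b* (-2.67), an inhibitor of cyclin-dependent kinases, *Ccdc141* (-2.44) and the kinase of secreted proteins *Fam20c* (-2.41).

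Of 44 matrix genes tested, 4 were called higher and 1 lower, beside 0.89% and 1.03% of all genes. Without the fold threshold 9 passed higher and 3 lower, beside 308 and 372 of all 16637 genes. A log2 fold change above 0 was found in 32, beside 8476 of all genes, and the median was 0.34. By embryo the list median was 0.04 log2 CPM from the WT mean in JE3, as in KE8 and LE6, and 0.32, 0.44 and 0.40 in JE4, LE2 and LE5. *Mmp2*, the gelatinase that digests collagen IV, was at 14.4, 17.0, 20.5 and 22.4 TPM in WT and at 82.9, 106, 134 and 94.5 TPM in *Gpr124*ΔC/ΔC. The lowest mutant embryo stood far above the highest control (log2 fold change 2.40, SE 0.15, adjusted p = 5.38e-06). *Dmp1*, an acidic matrix phosphoprotein known from bone, rose from 0.950 ± 0.363 to 12.3 ± 4.15 TPM (log2 fold change 3.62, SE 0.40, adjusted p = 0.000238). The hyaluronan link protein *Hapln1* (3.13 ± 0.823 to 16.3 ± 6.66 TPM, 2.29) and the basement membrane collagen *Col15a1* (20.5 ± 5.46 to 85.1 ± 2.67 TPM, 1.96) rose as well. *Spock2*, a matrix proteoglycan, was the member that fell (450 ± 65.6 to 171 ± 59.1 TPM, -1.49, adjusted p = 0.00323). *Col18a1* (0.97), *Timp3* (0.75), *Col5a2* (0.74) and *Hspg2* (0.66) passed inside the fold threshold.

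Of 30 tip cell and angiogenesis genes, 2 were called higher and 1 lower (beside 1.92% of all genes), 5 passed without the fold threshold, and the members ran from -2.80 to 1.92 with a median of 0.01. *Esm1*, a proteoglycan secreted by tip cells, was at 25.8, 19.6, 17.7 and 22.8 TPM in WT and at 90.7, 94.0, 85.9 and 70.2 TPM in *Gpr124*ΔC/ΔC, with no overlap (log2 fold change 1.92, SE 0.24, adjusted p = 0.000601). *Ramp3*, which makes the calcitonin-like receptor respond to adrenomedullin, rose from 2.85 ± 0.675 to 8.38 ± 1.29 TPM (1.48, adjusted p = 0.00209), a call lost in the letter L libraries (0.95, adjusted p = 0.190). *Adm*, the gene of adrenomedullin, fell inside the fold threshold (234 ± 52.3 to 131 ± 23.0 TPM, -0.92, adjusted p = 0.0114), and *Ramp2*, listed as a pan-endothelial marker, did so too (-0.46, adjusted p = 0.00676). *Tgfa*, a ligand of the EGF receptor, fell from 15.3 ± 2.61 to 2.34 ± 0.743 TPM (-2.80, SE 0.24, adjusted p = 4.21e-05).

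**Figure D5:**
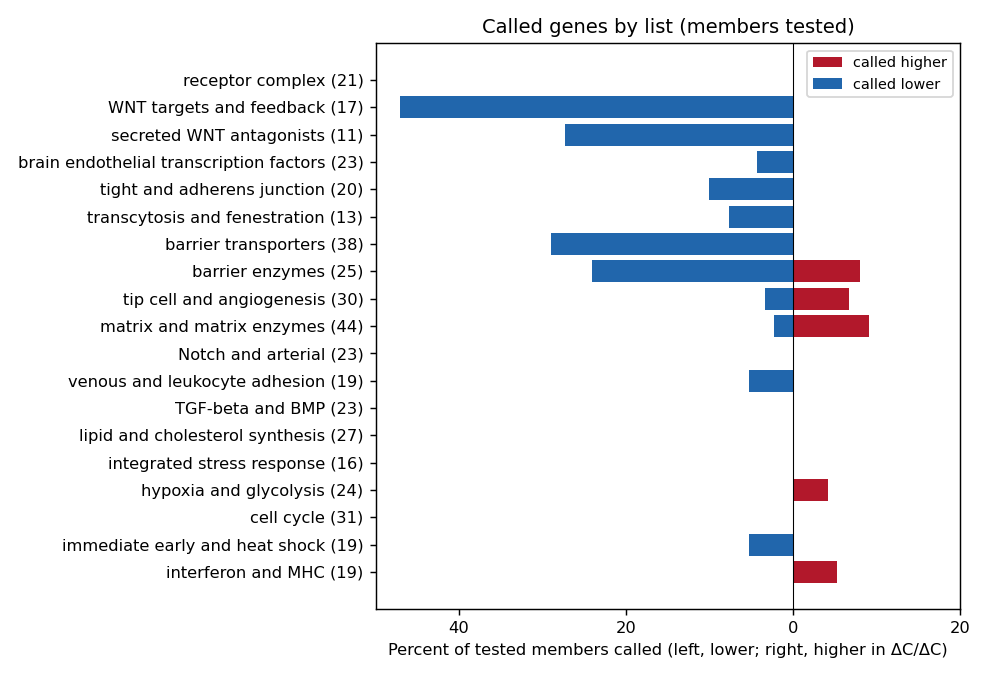
Share of the tested members of each list that were called lower (bars to the left) or higher (bars to the right) in *Gpr124*ΔC/ΔC against WT, in percent, with the number tested in brackets. WNT targets (47.1% lower), barrier transporters (28.9% lower) and matrix genes (4 of 44 higher) differ in direction, and 6 lists have no called gene. Over all genes tested, 1.03% were called lower and 0.89% higher.

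The rising genes outside the lists, named by size or level, had diverse roles. *Tmem255a*, a membrane protein of unclear function, was at 36.1, 33.3, 38.0 and 34.6 TPM in WT and at 138, 170, 211 and 151 TPM in *Gpr124*ΔC/ΔC (log2 fold change 2.15, SE 0.12, adjusted p = 3.49e-06). *Tm4sf1*, an endothelial surface protein, rose from 129 ± 11.5 to 314 ± 23.2 TPM (1.21, SE 0.07), with the same adjusted p. No gene had a lower one, and in both the groups were far apart. *Rgcc*, a regulator of the cell cycle that responds to complement, was the most abundant rising gene (387 ± 67.1 to 1047 ± 182 TPM, 1.34, adjusted p = 4.76e-05). *Igf2*, an insulin-like growth factor, went from 208 ± 17.2 to 496 ± 52.4 TPM (1.17, adjusted p = 0.000529), *Ifitm2* from 258 ± 13.3 to 610 ± 13.3 TPM (1.17) and *Emp1* from 121 ± 27.6 to 369 ± 53.7 TPM (1.51). The potassium channel subunit *Kcne3* rose from 38.5 ± 2.49 to 146 ± 17.4 TPM (1.86), the bradykinin receptor *Bdkrb2* from 9.85 ± 1.998 to 38.0 ± 10.5 TPM (1.85) and the TGF-β-induced matrix protein *Tgfbi* from 85.5 ± 11.9 to 268 ± 50.6 TPM (1.55). *Gimap4* (1.001) and *Sncg* (1.07) were called near the threshold, and the call of *Gimap4* was lost in 12 settings, among them JE6, KE8, LE2 or LE5 left out and the letter as a term (0.87). Further large rises were those of *Unc13c* (2.82), *Ttc9* (2.81), *Fam167b* (2.06), *Exoc3l2* (2.01), the cytokine receptor chain *Csf2rb* (1.87), *Ebf3* (1.86) and *Dse* (1.82), several of them from WT levels under 5 TPM.

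None of the 23 Notch and arterial genes was called, near the 1.92% of all genes, but 3 passed without the fold threshold, beside 4.09% of all genes. They fell inside the fold threshold, *Cxcl12* (46.7 ± 10.4 to 26.4 ± 5.69 TPM, -0.91), the Notch target *Hey1* (101 ± 21.0 to 62.6 ± 6.65 TPM, -0.77) and the arterial connexin *Gja4* (1198 ± 137 to 771 ± 89.8 TPM, -0.72). *Nos3*, the other gene of this list named by its level, was at 427 to 595 TPM in WT and 269 to 507 in *Gpr124*ΔC/ΔC (-0.36, adjusted p = 0.281). Of 19 venous and adhesion genes, the chemokine receptor *Ackr1* alone was called, where the 1.92% of all genes gives few or none. *Ackr1* fell from 33.0 ± 6.88 to 13.4 ± 2.97 TPM (-1.37, adjusted p = 0.00129).

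No gene was called among 23 TGF-β and BMP genes, 27 genes of lipid and cholesterol synthesis, 16 of the integrated stress response and 31 of the cell cycle, where the 1.92% of all genes gives few or none, and in the first 3 of these lists none passed without the fold threshold. Their medians were -0.03, 0.11, 0.06 and 0.19. The abundant BMP targets *Id1* (-0.32, adjusted p = 0.669) and *Id3* (-0.03, adjusted p = 0.981), the lipid genes *Scd2* (-0.16, adjusted p = 0.691) and *Acly* (0.24, adjusted p = 0.590), and the stress genes *Atf4* (0.04, adjusted p = 0.941) and *Shmt2* (0.08, adjusted p = 0.876) did not pass. In the cell cycle list the shifts were small. The proliferation marker *Mki67* was at 37.5 to 43.7 TPM in WT and 47.3 to 60.5 in *Gpr124*ΔC/ΔC (0.34, SE 0.07, adjusted p = 0.0181). The cyclin gene *Ccnb1* rose by 0.36 (adjusted p = 0.0103), and the inhibitor *Cdkn1a* fell by 0.57 (adjusted p = 0.00546). Of the 31 genes, 26 were above 0, beside 8476 of all 16637 genes. *Cdkn1c*, an abundant inhibitor, was at 127 to 394 TPM in WT and 64.9 to 235 TPM in *Gpr124*ΔC/ΔC and did not pass (-0.91, adjusted p = 0.478). The letter J embryos stood above the letter L embryos in each genotype, and the difference of *Cdkn1c* was -0.78 (adjusted p = 0.0149) within letter J, -1.61 within letter L and -1.12 (adjusted p = 0.000494) with the letter as a term.

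Interferon and antigen presentation genes lay above 0 in 17 of 19 cases, beside 8476 of all 16637 genes, with a median of 0.49, the highest of the program lists. Of the 19, 1 was called, beside 1.92% of all genes. *Irf1* was called (11.2 ± 2.73 to 25.3 ± 8.77 TPM, 1.08, adjusted p = 0.00601, lost without LE2), and *Ifitm3* rose inside the fold threshold (416 ± 79.3 to 811 ± 144 TPM, 0.89, adjusted p = 0.00261). The list median by embryo was 0.12 and 0.25 log2 CPM in JE3 and LE5, 0.86 and 0.70 in JE4 and LE2, and -0.18 to 0.30 in WT, so that JE3 and LE5 were not apart from the controls. The interferon-induced genes *Rtp4* (1.505, adjusted p = 0.0244) and *Ifi44* (1.49, adjusted p = 0.0405) were called but lost in 10 and 13 settings, among them JE1, JE6, LE6, JE4 or LE2 left out. The 4 macrophage and microglia markers that passed the filter, of 11 in the list, were all above 0 without passing the test, with sums of the list of 28.3 to 44.1 TPM in *Gpr124*ΔC/ΔC against 18.1 to 27.5 in WT, no marker at 0 in all 8 embryos, and the part of such cells in these rises was not tested. Among the 24 hypoxia genes *Egln3* alone was called (5.84 ± 1.48 to 13.0 ± 2.99 TPM, 1.09). Among the 19 immediate early and heat shock genes *Hspb1* alone was called, and it was lower (155 ± 19.3 to 81.0 ± 22.3 TPM, -1.01). In lists of this size the 1.92% of all genes gives few or none. The call of *Hspb1* was lost in 17 settings, among them each WT embryo, JE3, LE2 or LE5 left out and the letter as a term over the 8 libraries.

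Markers of other cells were called in 2 cases, both lower, beside 1.92% of all genes. The pericyte marker *Higd1b* fell from 14.4 ± 6.75 to 5.22 ± 2.06 TPM (-1.54, adjusted p = 0.043), a call lost in 17 settings, among them JE1, KE8, JE3, LE2 or LE5 left out and the letter as a term (-1.22, adjusted p = 0.0557). Of the other pericyte markers, *Pdgfrb* was at 1.47 to 3.96 TPM in WT and 0.415 to 2.09 TPM in *Gpr124*ΔC/ΔC, *Kcnj8* at 4.77 to 8.45 and 1.32 to 5.19 TPM, and *Vtn* at 6.10 to 24.7 and 2.40 to 8.93 TPM, and none of these passed (adjusted p = 0.38, 0.0843 and 0.117). Of the 12 listed, 10 lay below 0 and 2 above, the highest at a log2 fold change of 1.51 that did not pass. *Slc1a3*, listed as a marker of neural progenitors, fell from 9.16 ± 2.44 to 2.50 ± 0.427 TPM (-1.95, adjusted p = 0.000536), while the list's sum was 34.0 to 49.6 TPM in WT and 25.8 to 42.1 TPM in *Gpr124*ΔC/ΔC. Neuron, fibroblast, erythroid, platelet, choroid plexus and sex-linked markers held no called gene, with medians of 0.12, -0.66, -0.34, 0.24, 0.38 and -0.87. Erythroid markers were abundant, with sums of 7083 to 11843 TPM in WT and 5464 to 9949 TPM in *Gpr124*ΔC/ΔC, about the level of the pan-endothelial markers. The part of this RNA in the results was not tested. *Dcn* and *Col3a1* of the fibroblasts were at 5.35 to 37.9 and 2.85 to 11.1 TPM in WT and at 2.35 to 7.88 and 2.32 to 5.74 TPM in *Gpr124*ΔC/ΔC. The choroid plexus gene *Ttr* spanned 115 to 798 TPM in WT and 139 to 1548 TPM in *Gpr124*ΔC/ΔC. The 5 genes with the widest spread among *Gpr124*ΔC/ΔC embryos were *Xist*, the Y-linked *Ddx3y*, *Eif2s3y* and *Kdm5d*, and the pseudogene *Gm13394* (0.640 to 300 TPM).

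Beside the null allele, many of these changes were of lesser size. The 2 comparisons share the WT embryos, so their values are set side by side only, and the difference between the mutants was tested directly, in embryos that share no letter, so that it includes any difference between letters (8.82% of all genes differed at an adjusted p under 0.05). The log2 fold change against WT of *Slc22a8* was -2.53 in *Gpr124*ΔC/ΔC and -5.42 in *Gpr124*-/-, and the mutants differed by 2.89 (adjusted p = 0.000234). The values were, for *Mfsd2a*, -1.62 and -3.96 (2.35, adjusted p = 0.000447) and for *Cldn5* -0.97 and -2.12 (1.15, adjusted p = 0.000426). The tip cell gene *Esm1* rose by 1.92 and by 4.40, and the mutants differed by -2.48 (adjusted p = 0.000161). The mutants did not differ beyond the threshold in several genes, with *Notum* at -4.41 and -3.88 (adjusted p = 0.493 between the mutants), *Axin2* at -1.07 and -1.56 (0.0646), *Nkd2* at -1.35 and -1.07 (0.477), *Ddc* at -3.19 and -2.75 (0.428) and *Dmp1* at 3.62 and 3.75 (0.861), which does not show that they are equal. The matrix genes *Mmp2* (2.40 and 3.52, adjusted p = 0.000698 between the mutants) and *Hapln1* (2.29 and 3.36, 0.0116) rose by less in *Gpr124*ΔC/ΔC. The median over the WNT target list differed from the WT mean by -1.28 to -0.86 log2 CPM in single *Gpr124*ΔC/ΔC embryos and -1.95 to -1.54 in *Gpr124*-/- embryos.

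A small number of called genes, 6 in all, lay further from WT in the truncation mutant than in the null mutant, at an adjusted p below 0.05 between both. *Efnb3*, an ephrin ligand, was at 12.1, 12.6, 12.9 and 12.5 TPM in WT, at 6.28, 5.97, 6.04 and 6.12 TPM in *Gpr124*ΔC/ΔC and at 12.2 TPM on average in *Gpr124*-/- (log2 fold changes -1.11 and -0.06, adjusted p = 0.00436 between the mutants). The spread within each group was small, but the call against WT was lost in 3 settings. *Moxd1*, a monooxygenase-like gene, rose from 2.79 ± 1.28 to 9.24 ± 1.98 TPM and was at 1.72 TPM in *Gpr124*-/- (1.67 and -0.72, adjusted p = 0.000581), and its call against WT was lost in the letter L libraries (0.93, adjusted p = 0.0758). The chloride channel gene *Clic5* (1.36 and 0.27), the potassium channel subunit *Kcnmb2* (2.64 and 0.37, a call lost in letter J), *Plekhb1* (1.19 and 0.51, lost in 3 settings) and the protocadherin *Pcdhb11* (1.37 and -0.95, a call lost in 13 settings) were the others. With the letter as a term, an alternative chosen after seeing the data, none of the 6 passed the test between the mutants (adjusted p from 0.113 to 0.957). That fit reaches the null mutants only through the letter K pair, WT embryo KE8 and *Gpr124*-/- embryo KE4. The difference between the mutants in log2 fold change, without and with the letter, was 2.39 and 2.54 for *Moxd1*, 0.68 and 0.83 for *Plekhb1*, 1.09 and 0.91 for *Clic5*, 2.31 and 1.69 for *Pcdhb11*, 2.27 and 0.93 for *Kcnmb2*, and -1.04 and -0.61 for *Efnb3*, so that no sign changed.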

How the data were processed

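The authors sorted endothelial cells from E15.5 forebrains, made SMART-Seq V4 libraries from poly(A) RNA, 1 embryo per library, and sequenced paired ends. Per the submitters' processing notes, bcl2fastq 2.17 and mm10 were used. The aligner, counter, annotation and strand setting are not given in the sources used here. The deposited files hold raw read counts per Ensembl gene, beside TPM values that the authors derived from them (recomputed here within 0.005%). GENCODE vM21 gave names for 49056 of 49315 IDs.

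Counts of all 12 libraries were fitted in edgeR 4.0.16 (R 4.3.3; filterByExpr, minimum count 10; TMM; quasi-likelihood F-test; 9 residual degrees of freedom), with genotype as the only term and Benjamini-Hochberg adjustment over all 16637 genes. A called gene had a log2 fold change beyond 1 in size, with adjusted p below 0.05. Log2 fold changes are *Gpr124*ΔC/ΔC minus WT, with SE. Means are ± SD over 4 embryos. Whether embryos were littermates is not given.

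Alternatives used DESeq2 1.42.0, limma 3.58.1 on log2(TPM + 1) or log2(TPM + 0.1), other filters and factors, thinned counts, the label letter or *Xist* as a term, and each library left out. On simulated counts for this comparison (16339 genes tested), 109 of 111 genes changed by 2 and 74 of 89 changed by 1.5 on the log2 scale were called, and 5 unchanged genes. These counts held no difference between letters and no smaller change, so they do not speak of genes that vary by letter or lie near the fold threshold.

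Named genes were the called members of each list (up to 6, or the 2 most abundant where none was called), the 15 largest rises and 15 largest falls, the 10 most abundant rising and falling protein-coding genes, those further from WT than in *Gpr124*-/-, and the 5 with the widest spread among mutants. The 15 largest rises and falls were taken from called genes above a low level whose WT and *Gpr124*ΔC/ΔC ranges did not overlap. In those genes the lack of overlap follows from the choice, and larger changes outside these limits are not named. Further genes were named after their values were seen. The comparison, lists and rules were chosen with earlier results of these data known. Results of some genes are not reported here.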

Additional observations from a re-analysis of the deposited data

Results flagged for a closer look

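Among 328 groups of 4 embryos checked for the genes named, 11 (3.35%) had 1 embryo far from the other three by Dixon's criterion, where chance gives about 1 in 20. High WT embryos were KE8 for *Anxa1* (29.6 TPM, the nearest other at 18.9) and for the fibroblast marker *Dcn* (37.9 TPM, nearest 5.91), JE6 for *Col15a1* (28.6 TPM, nearest 18.4), LE6 for the platelet gene *Pf4* (255 TPM, nearest 129) and for *Ramp3* (3.86 TPM, nearest 2.60), and JE1 for *Tgfa* (19.2 TPM, nearest 14.4). Low WT embryos were LE6 for *Igf1* (3.10 TPM, nearest 4.28), JE6 for *Igf2* (183 TPM, nearest 213) and JE1 for *Slc7a8* (182 TPM, nearest 243). Among *Gpr124*ΔC/ΔC embryos, JE3 was high for *Ebf3* (5.02 TPM, nearest 2.57) and LE5 for *Pdk4* (11.3 TPM, nearest 6.17). Of these genes, *Dcn* and *Pf4* were not called.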

How the results depend on the processing

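The counts of called genes (148 higher, 172 lower) stayed within 1.5 times under other factors, filters, DESeq2 (200 and 226), the 8 libraries alone (135 and 179), the label letter as a term (199 and 229), libraries thinned to the smallest total (141 and 173) and *Xist* as a term (141 and 164). They moved further without the fold threshold (308 and 372), with limma on log2(TPM + 1) and no filter (93 and 100), and, for higher genes, in the letter J libraries (95). Leaving out 1 library gave 117 to 156 higher and 140 to 181 lower genes, a log2 fold change of *Adgra2* of -0.23 to 0.33, and a difference in library totals of -5773900 to -3944550 reads, with a permutation p of 0.0571, the smallest 3 against 4 allow. None of the 97 called genes followed changed sign in any alternative. Uncalled genes did. In letter L alone, values were 0.33 for *Col3a1*, 0.013 for *Dcn*, 8.81 for *Ddx3y*, 11.9 for *Eif2s3y*, 11.5 for *Kdm5d*, 0.30 for *Pdgfrb*, -0.53 for *Pf4*, 0.056 for *Reck*, 0.10 for *Scd2*, -0.92 for *Xist*, -0.26 for *Gm13394*, 0.18 for *Id3*, -0.031 for *Ppbp* and -0.22 for *Tubb3*. In letter J alone they were -0.40 for *Gm13394*, 0.033 for *Id1*, 0.093 for *Id3*, -0.12 for *Neurod6*, -0.23 for *Ppbp* and -0.18 for *Tubb3*. With the letter as a term, over 12 and over 8 libraries, *Gm13394* was -0.35 and -0.33, *Id3* 0.12 and 0.14, *Ppbp* -0.15 and -0.14, and *Tubb3* -0.20 and -0.19. *Id3* was 0.0033 with upper-quartile factors, 0.060 or 0.061 in the 3 limma fits and 0.033 with *Xist* as a term, where *Xist* itself was -0.0078. *Reck* was 0.015 or 0.016 in the limma fits. With 1 library left out, *Gm13394* ran from -0.26 to 0.57, *Id3* from -0.12 to 0.081, *Ppbp* from -0.17 to 0.27, *Reck* from -0.12 to 0.094 and *Tubb3* from -0.11 to 0.39. The causes were not tested. No paired analysis was possible because WT and *Gpr124*ΔC/ΔC embryos share no number. The label letter, which they do share, was used as a term instead. With 4 embryos a genotype, low genes and changes near the fold threshold are the least certain.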

Other observations

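The genes below were chosen singly after their values were seen and stand for no pathway. *Tfrc*, the transferrin receptor and a member of the transporter list, was at 243, 200, 294 and 416 TPM in the WT embryos JE1, JE6, KE8 and LE6 and at 39.1, 67.3, 120 and 132 TPM in JE3, JE4, LE2 and LE5 (log2 fold change -1.79, SE 0.33, edgeR adjusted p = 0.00726). *Steap3*, a reductase that acts on endosomal iron, fell from 28.8 ± 1.32 to 14.0 ± 3.49 TPM (-1.13, adjusted p = 0.00116). *Angptl4*, an inhibitor of lipoprotein lipase, fell from 219 ± 26.5 to 74.9 ± 29.1 TPM (-1.65, adjusted p = 0.00044), and *Pdk4*, which restrains glucose oxidation, from 18.9 ± 4.28 to 7.16 ± 2.80 TPM (-1.48, adjusted p = 0.00741). *Stra6*, the retinol uptake receptor, fell from 63.8 ± 11.8 to 24.8 ± 10.4 TPM (-1.46, adjusted p = 0.00238). *Flvcr2* (-1.24), the lysophospholipase D gene *Enpp2* (-1.03) and the amino acid carrier *Slc7a8* (-1.45) were called lower, with calls lost in 4, 7 and 10 alternative settings, *Flvcr2* without JE4, *Enpp2* without JE3 or KE8, and *Slc7a8* without JE3, JE4, JE6, KE8, LE2 or LE6. Among rising genes outside the lists, the endothelin receptor *Ednrb* went from 11.6 ± 1.81 to 35.3 ± 3.55 TPM (1.52, adjusted p = 0.000213), *S100a10* from 47.8 ± 13.0 to 131 ± 13.3 TPM (1.39), *Anxa1* from 21.1 ± 5.70 to 55.3 ± 6.05 TPM (1.32) and the guidance receptor *Robo1* from 8.56 ± 1.08 to 20.7 ± 5.24 TPM (1.18). The WT and *Gpr124*ΔC/ΔC ranges did not overlap for any of these genes. The same held for 310 of the 320 called genes, from which they were chosen, beside 11.3% of all genes tested.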
